A study of Bos taurus with 12 samples.

Results

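The tricarboxylic acid (TCA) cycle and the breakdown of branched-chain amino acids were followed through 40 genes in the right ventricle of yearling cattle. The genes were chosen by name, as enzymes of these pathways and of the propionate and ketone-body steps that join them, and where a symbol repeated the row of highest mean level was taken. They are 40 of the 24616 genes in the table, 22 of the TCA cycle and its aspartate branch and 18 of branched-chain, propionate and ketone-body breakdown. All 40 passed the filter on low values that 11374 genes passed, and 41 rows of the table carry a member's symbol because AUH has an entry on each of 2 chromosomes.

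The animals were 12 Angus steers of wild-type genotype, born and kept at 2170 m (7120 ft) on grass hay with grain, castrated at 6 to 8 months and slaughtered at 13 to 15 months. All of them lived under the chronic hypoxia of that altitude, so no group stands for low altitude. The 6 low-PAP animals tolerated hypoxia with a low pulmonary arterial pressure (PAP). Of the 6 with high PAP, here called pulmonary hypertensive (PH), 3 were labelled healthy (PH-healthy) and 3 had heart failure (PH-failure), a classification made by repeated right heart catheterization and clinical signs. RNA of the right ventricle was sequenced, and every library came from a different animal. The questions asked of the members were how they differed between hypertensive and low-pressure ventricles, with and without failure, and between the ventricles with and without failure.

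In the TCA cycle, acetyl-CoA from sugars, fats and amino acids is joined to oxaloacetate and oxidized in steps that hand electrons to the respiratory chain. Leucine, isoleucine and valine are first transaminated and then oxidized by a branched-chain ketoacid dehydrogenase that a kinase switches off and a phosphatase switches on. Their carbon reaches the cycle as acetyl-CoA or, through propionyl-CoA, as succinyl-CoA, and the heart also burns ketone bodies by way of succinyl-CoA.

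Levels are reads normalized to exon length and library size (RPKM), from 14739237 to 31090198 mapped reads per library. The reads behind a member ranged from 125 to 58764 per library. In the low-PAP mean, 29 of the 40 members were above 90% of the tested genes. MDH1 was the highest (above 99.5% of them) and BCAT2 the lowest (above 50.6%). PH-failure replicate 1 had the fewest mapped reads. PH-failure replicate 3 stood apart in its members' levels. Without it the PH-failure log2 fold change moved by over 1.5 times or turned in sign in 29 of the 40 members (6 turned), and the value without it is given for each of them. Against low PAP, all tested genes had a median log2 fold change of 0.21 in PH-failure and 0.18 in PH-healthy, not of 0. Reads of the mitochondrial genome took 24.6 ± 2.67% of the exon reads in low PAP (SD, n = 6), 19.8 ± 1.27% in PH-healthy and 19.4 ± 1.34% in PH-failure (SD, n = 3 each). Quantile normalization brought those medians to -0.03 and -0.04. The library names carry a series number, 55 or 56, each with 3 low-PAP and 3 PH libraries.

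In failing ventricles, 9 of the 40 members were lower than in low PAP and none was higher, against a background in which 28.0% of all tested genes were called higher and 5.79% lower. The 9 were IDH3B, IDH3G, SUCLA2, SUCLG1, SDHB, FH and GOT1 of the TCA cycle and its aspartate branch, and BCKDHB and MUT of branched-chain and propionate breakdown. In PH-healthy ventricles 7 members were lower (IDH3B, IDH3G, SUCLA2, SUCLG1, FH, BCKDHB and ACAT1) and 3 higher (PPM1K, MCCC2 and OXCT1), against 8.15% and 26.6% of all genes. A call is an adjusted p under 0.05 in limma with Benjamini-Hochberg adjustment over the 11374 genes, on the log2(RPKM + 1) scale, and fold changes are given with their standard error, those of PH-failure first wherever a pair is given. Both comparisons use the same 6 low-PAP animals, so they are not independent. In bulk tissue, fewer cells of a type and less RNA per cell cannot be told apart.

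Against low PAP, the median member had a log2 fold change of -0.25 in PH-failure and -0.16 in PH-healthy, where that of all genes was 0.21 and 0.18. After quantile normalization the member medians were -0.22 and -0.06, beside -0.03 and -0.04 for all genes. The split of calls depended on the scaling. All genes were split 3190 higher and 658 lower in PH-failure, 1133 and 1418 after quantile normalization and 1530 and 1681 after median-ratio scaling. For PH-healthy these were 3024 and 927, 1424 and 1622, and 1824 and 1861. The members in PH-failure stood at 0 higher and 9 lower, 0 and 10 after quantile normalization and 0 and 22 after median-ratio scaling. In PH-healthy they stood at 3 higher and 7 lower, 4 and 4 after quantile normalization, 0 and 11 after median-ratio scaling, and 2 and 10 after scaling without the mitochondrial genome. After that last scaling, all genes in PH-healthy were split 2432 higher and 1278 lower.

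Without PH-failure replicate 3, the members lower in PH-failure were 2 (SUCLA2 and BCKDHB), and 3 were higher (CS, BCKDK and PPM1K). All genes then gave 1283 higher and 257 lower in that comparison, and the same fit gave 5 members higher and 11 lower in PH-healthy, with 3302 and 1092 of all genes. Within either library series alone, the 9 members called in PH-failure and the 10 called in PH-healthy had the same direction as in all libraries, which are the libraries that chose them. The only PH-failure library of series 55 was replicate 3, and the only PH-healthy library of series 56 was replicate 1. PH-failure replicate 3 thus also differed in series from PH-failure replicates 1 and 2. In PH-failure every library was below every low-PAP library for 7 members and above for none, against 3.74% and 18.6% of all genes. In PH-healthy this was so for 11 members below and 5 above, against 9.3% and 25.0%.

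**Figure D1:**
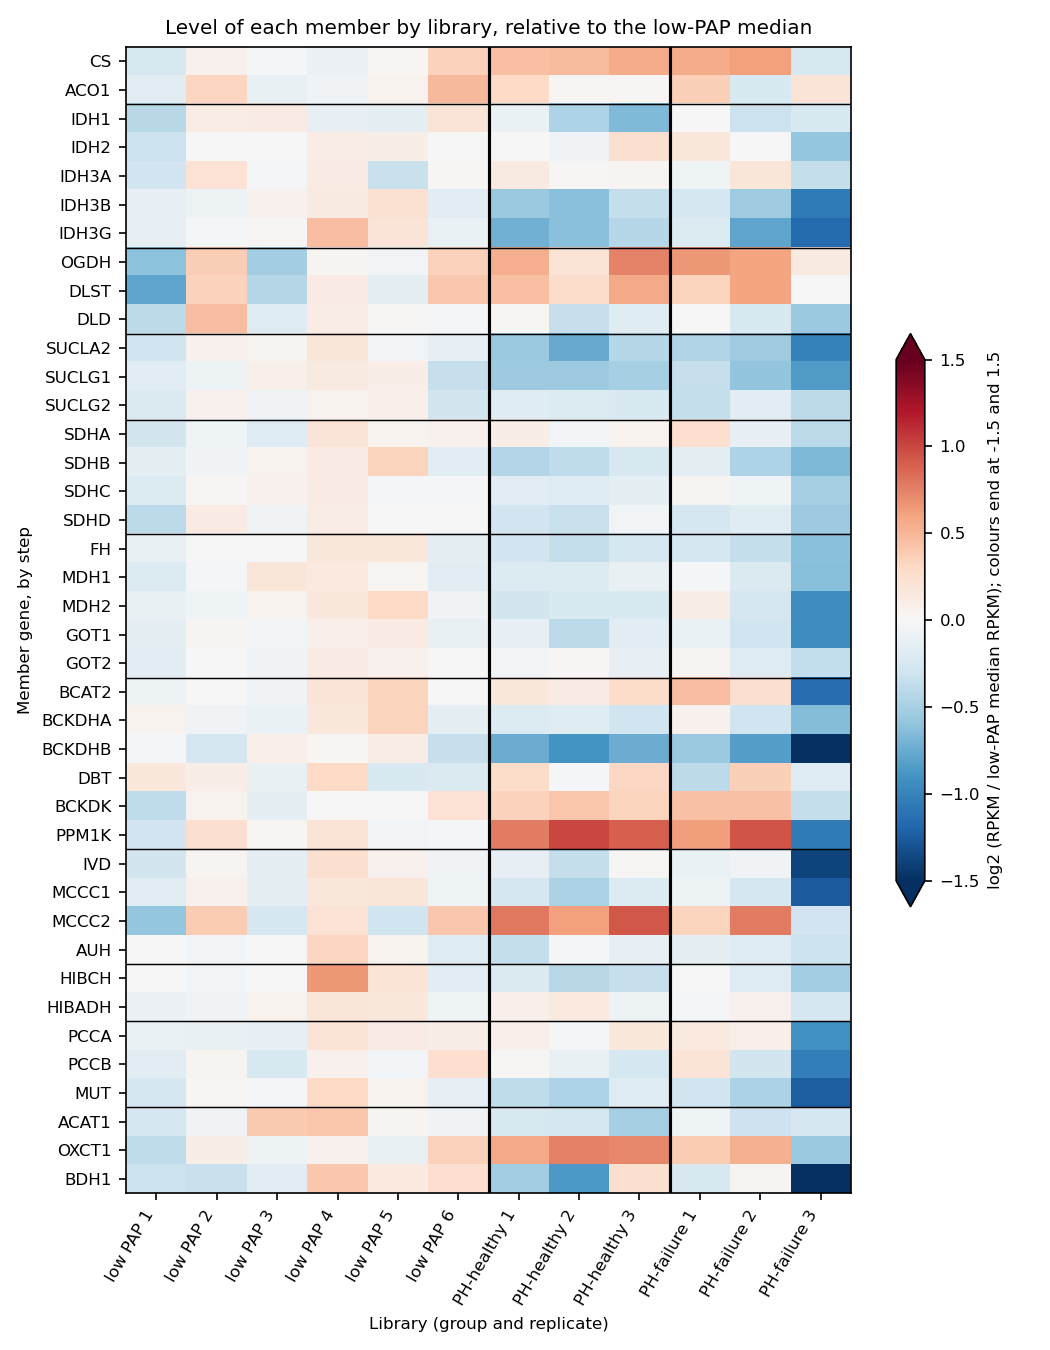
Level of each of the 40 members (rows, by pathway step) in each of the 12 libraries (columns), as log2 of RPKM over the low-PAP median of that gene; blue is lower and red is higher. IDH3B, IDH3G, SUCLA2, SUCLG1, FH and BCKDHB are blue in all 6 PH libraries, and PH-failure replicate 3 is the lowest of the 12 libraries in 30 members.

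**Figure D2:**
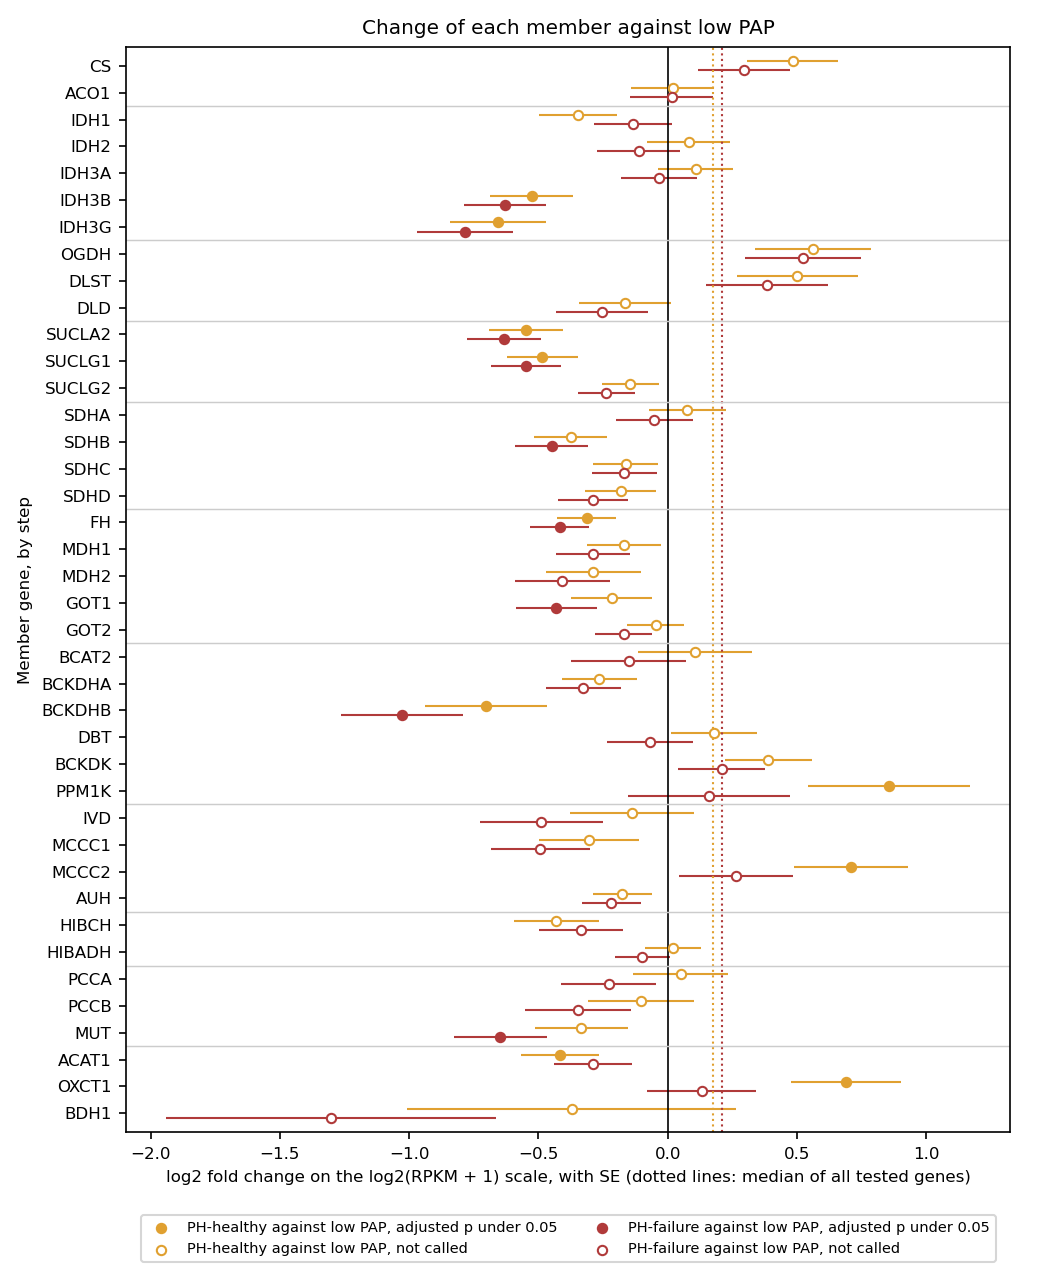
Log2 fold change of each member against low PAP on the log2(RPKM + 1) scale, with its standard error, for PH-failure and PH-healthy; filled points have an adjusted p under 0.05 and dotted lines mark the median of all tested genes (0.21 and 0.18). Of the filled points in PH-failure, all 9 lie below 0, and in PH-healthy 7 lie below and 3 above.

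Citrate synthase, CS (ENSBTAG00000004371, chromosome 5, 57366007 to 57389596 as the table gives it), makes citrate from acetyl-CoA and oxaloacetate at the start of the cycle. CS was at 179 to 269.9 RPKM (median 212) in the low-PAP libraries, and replicates 1, 2 and 3 read 291, 296 and 312 RPKM in PH-healthy and 312, 325 and 179.8 RPKM in PH-failure. All 3 PH-healthy libraries and PH-failure replicates 1 and 2 were above every low-PAP library, while PH-failure replicate 3 lay at the low end of the low-PAP range. CS did not pass the test in PH-healthy (log2 fold change 0.48 ± 0.18, adjusted p = 0.0503) or in PH-failure (log2 fold change 0.30 ± 0.18, adjusted p = 0.203). Without PH-failure replicate 3 the difference in PH-failure was 0.57 and passed (adjusted p = 0.0237, with 0.0237 to 0.887 over its 21 alternatives). In PH-healthy, CS passed after quantile normalization or without trend and robust moderation, or without any 1 of low-PAP replicate 6 or PH-failure replicates 1, 2 or 3 (then at an adjusted p from 0.00941 to 0.0499, and at 0.00941 to 0.289 across all 21 alternatives). ACO1, which encodes the cytosolic aconitase and iron sensor, was at 15.4 to 24.0 RPKM (median 17.1) in the low-PAP libraries, and its 6 PH libraries lay between 14.6 and 22.0 RPKM, so the groups overlapped. In PH-failure, ACO1 had a log2 fold change of 0.02 ± 0.16, and -0.022 without replicate 3.

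The NAD-dependent isocitrate dehydrogenase, IDH3, is built of catalytic IDH3A and of IDH3B and IDH3G, and IDH3B and IDH3G were called lower where IDH3A was not. The difference between the subunits was not itself tested. IDH3B (ENSBTAG00000018813, chromosome 13, 52978728 to 52983685) was at 309 to 405 RPKM (median 346) in the low-PAP libraries, and replicates 1, 2 and 3 read 234, 224 and 269.8 RPKM in PH-healthy and 288, 239 and 165 RPKM in PH-failure. IDH3G (ENSBTAG00000001059, chromosome X, 39916806 to 39925370) was at 122 to 184 RPKM (median 133) in the low-PAP libraries, and replicates 1, 2 and 3 read 80.9, 86.5 and 99.0 RPKM in PH-healthy and 115, 77.0 and 59.5 RPKM in PH-failure. For both subunits every PH library was below every low-PAP library, and PH-failure replicate 3 was the lowest. IDH3B fell by 34.1% in the PH-failure mean (log2 fold change -0.63 ± 0.16, adjusted p = 0.0132) and fell by 30.8% in the PH-healthy mean (log2 fold change -0.53 ± 0.16, adjusted p = 0.0246). IDH3G fell by 40.7% in PH-failure (log2 fold change -0.78 ± 0.19, adjusted p = 0.0102) and fell by 37.2% in PH-healthy (log2 fold change -0.66 ± 0.19, adjusted p = 0.0187).

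In PH-failure, IDH3B was no longer called without PH-failure replicate 3 (then at adjusted p = 0.064, and at 0.00421 to 0.1 across all 21 alternatives). In the same comparison, IDH3G was no longer called without PH-failure replicate 3 (then at adjusted p = 0.0558, and at 0.00174 to 0.08 across all 21 alternatives). In PH-healthy, IDH3B was no longer called after quantile normalization or without PH-healthy replicate 1 or 2 (then at an adjusted p from 0.0872 to 0.0932, and at 0.00652 to 0.153 across all 21 alternatives). There too, IDH3G was no longer called without PH-healthy replicate 1 or 2 (then at an adjusted p from 0.0597 to 0.0808, and at 0.00607 to 0.125 across all 21 alternatives). The catalytic subunit IDH3A was at 157 to 231 RPKM (median 198) in the low-PAP libraries, and replicates 1, 2 and 3 read 217, 200.2 and 204 RPKM in PH-healthy and 189, 225 and 155 RPKM in PH-failure. Its groups overlapped, with log2 fold changes of -0.03 ± 0.15 in PH-failure (adjusted p = 0.873) and 0.11 ± 0.15 in PH-healthy (adjusted p = 0.587). Leaving out PH-failure replicate 3 gave 0.10 for IDH3A and -0.41 for IDH3B in PH-failure.

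The NADP-dependent enzymes IDH2 (mitochondrial) and IDH1 (cytosolic) did not pass the test in either comparison. IDH2 was at 405 to 543 RPKM (median 504) in the low-PAP libraries, and replicates 1, 2 and 3 read 501, 486 and 595 RPKM in PH-healthy and 569, 506 and 337 RPKM in PH-failure. PH-failure replicate 3 was below all low-PAP libraries, and the other 5 PH libraries reached from inside their range to above it. IDH2 had a log2 fold change of -0.11 ± 0.16 in PH-failure, and of 0.11 without replicate 3. IDH2 was called higher in PH-healthy after quantile normalization (log2 fold change 0.48, adjusted p = 0.0395; 0.0395 to 0.999 over its 21 alternatives). IDH1 ranged from 11.4 to 20.7 RPKM over all 12 libraries. In PH-healthy, IDH1 had a log2 fold change of -0.35 ± 0.15 (adjusted p = 0.0877), and it was called lower there after quantile normalization, after median-ratio scaling or after scaling without the mitochondrial genome, or without low-PAP replicate 1 (then at an adjusted p from 0.0108 to 0.0436, and at 0.0108 to 0.326 across all 21 alternatives).

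Ratios of partner genes within a library do not depend on the scaling of that library. There were 7 such ratios, each tested in 3 comparisons by a two-sided exact permutation test, with p-values adjusted over the 21. The smallest p that 6 against 3 libraries allow is 0.0119. What it becomes after adjustment depends on how many of the 21 tests reach it. Here it became an adjusted p of 0.05, so no ratio passed an adjusted p under 0.05. The IDH2 to IDH1 ratio of RPKM was 24.2 to 32.9 (median 27.9) in the low-PAP libraries, 29.8, 37.3 and 52.3 in PH-healthy replicates 1, 2 and 3 and 31.3, 35.0 and 21.9 in PH-failure replicates 1, 2 and 3. Its log2 difference was 0.45 in PH-healthy (exact p = 0.0595, adjusted p = 0.156) and 0.03 in PH-failure (exact p = 0.893). The IDH3A to IDH2 ratio was 0.293 to 0.456 (median 0.398) in the low-PAP libraries and lay between 0.333 and 0.460 in the 6 PH libraries, and the groups overlapped.

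The 2-oxoglutarate dehydrogenase complex, which makes succinyl-CoA, consists of OGDH, DLST and the shared subunit DLD. OGDH (ENSBTAG00000006029, chromosome 4, 77458515 to 77512436) was at 55.4 to 109 RPKM (median 85.1) in the low-PAP libraries, and replicates 1, 2 and 3 read 124, 98.0 and 143 RPKM in PH-healthy and 134, 128 and 93.3 RPKM in PH-failure. The PH values lay in the upper part of the low-PAP range or above it, and the groups overlapped. OGDH had a log2 fold change of 0.52 ± 0.22 in PH-failure (adjusted p = 0.0837) and 0.56 ± 0.22 in PH-healthy (adjusted p = 0.067), and did not pass in either. Leaving out low-PAP replicate 2 or 6 brought OGDH under the threshold in both (PH-failure with adjusted p = 0.0482 and 0.0445 and 0.0445 to 0.336 over its alternatives, PH-healthy with 0.0384 and 0.0349 and 0.0349 to 0.227). DLST, the succinyltransferase core, was at 56.7 to 129.5 RPKM (median 98.0) in the low-PAP libraries and had fold changes of 0.38 ± 0.23 and 0.50 ± 0.23 (adjusted p = 0.209 and 0.111). DLD, the lipoamide dehydrogenase, was at 169 to 306 RPKM (median 222) in the low-PAP libraries, and its fold changes were -0.26 ± 0.18 and -0.16 ± 0.18 (adjusted p = 0.273 and 0.487), the first -0.11 without PH-failure replicate 3. In PH-failure, DLD was called lower after median-ratio scaling (then at adjusted p = 0.0434, and at 0.0434 to 0.704 across all 21 alternatives).

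Succinyl-CoA ligase, the step that makes ATP or GTP directly in the cycle, pairs the shared subunit SUCLG1 with SUCLA2 (ATP-forming) or SUCLG2 (GTP-forming). SUCLA2 (ENSBTAG00000006759, chromosome 12, 17884900 to 17930933) was at 148 to 205 RPKM (median 182) in the low-PAP libraries, and replicates 1, 2 and 3 read 124, 107 and 135 RPKM in PH-healthy and 133, 125 and 89.9 RPKM in PH-failure. Each of the 6 PH libraries was below all 6 low-PAP libraries. The SUCLA2 mean fell by 35.2% in PH-failure (log2 fold change -0.63 ± 0.14, adjusted p = 0.00826) and fell by 31.8% in PH-healthy (log2 fold change -0.55 ± 0.14, adjusted p = 0.0131). Without PH-failure replicate 3, the fall in PH-failure was still called (log2 fold change -0.46, adjusted p = 0.043; 0.00514 to 0.0793 over its 21 alternatives). In PH-healthy, SUCLA2 was no longer called without PH-healthy replicate 2 (then at adjusted p = 0.0646, and at 0.00504 to 0.108 across all 21 alternatives).

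SUCLG1 (ENSBTAG00000006075, chromosome 11, 50400444 to 50453412) was at 441 to 615 RPKM (median 560.0) in the low-PAP libraries, and replicates 1, 2 and 3 read 383, 384 and 396 RPKM in PH-healthy and 440.2, 373 and 311 RPKM in PH-failure. Its PH-failure replicate 1, the highest PH library, lay just under the lowest low-PAP library, so the groups did not overlap. SUCLG1 fell in PH-failure (log2 fold change -0.55 ± 0.14, adjusted p = 0.0122) and in PH-healthy (log2 fold change -0.48 ± 0.14, adjusted p = 0.0181). In PH-failure, SUCLG1 was no longer called without PH-failure replicate 3 (then at adjusted p = 0.0619, and at 0.00444 to 0.0749 across all 21 alternatives). In PH-healthy, SUCLG1 was no longer called after quantile normalization or without any 1 of PH-healthy replicates 1, 2 or 3 (then at an adjusted p from 0.0523 to 0.238, and at 0.00656 to 0.238 across all 21 alternatives). The GTP-forming subunit SUCLG2 was at 177 to 227 RPKM (median 215) in the low-PAP libraries, and replicates 1, 2 and 3 read 189, 188 and 184 RPKM in PH-healthy and 169, 193 and 165 RPKM in PH-failure, and its groups overlapped. SUCLG2 did not pass in PH-failure (log2 fold change -0.24 ± 0.11, adjusted p = 0.107) or in PH-healthy (log2 fold change -0.14 ± 0.11, adjusted p = 0.321). In PH-failure, SUCLG2 was called lower after median-ratio scaling or after scaling without the mitochondrial genome, or without low-PAP replicate 6 (then at an adjusted p from 0.0196 to 0.0481, and at 0.0196 to 0.272 across all 21 alternatives).

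The SUCLA2 to SUCLG2 ratio was 0.777 to 0.943 (median 0.870) in the low-PAP libraries, 0.654, 0.573 and 0.733 in PH-healthy replicates 1, 2 and 3 and 0.787, 0.648 and 0.547 in PH-failure replicates 1, 2 and 3. All 3 PH-healthy values were below every low-PAP value, and PH-failure replicate 1 fell inside the low-PAP range. The log2 difference was -0.41 in PH-healthy (exact p = 0.0119, adjusted p = 0.05) and -0.40 in PH-failure (exact p = 0.0238, adjusted p = 0.0833).

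**Figure D3:**
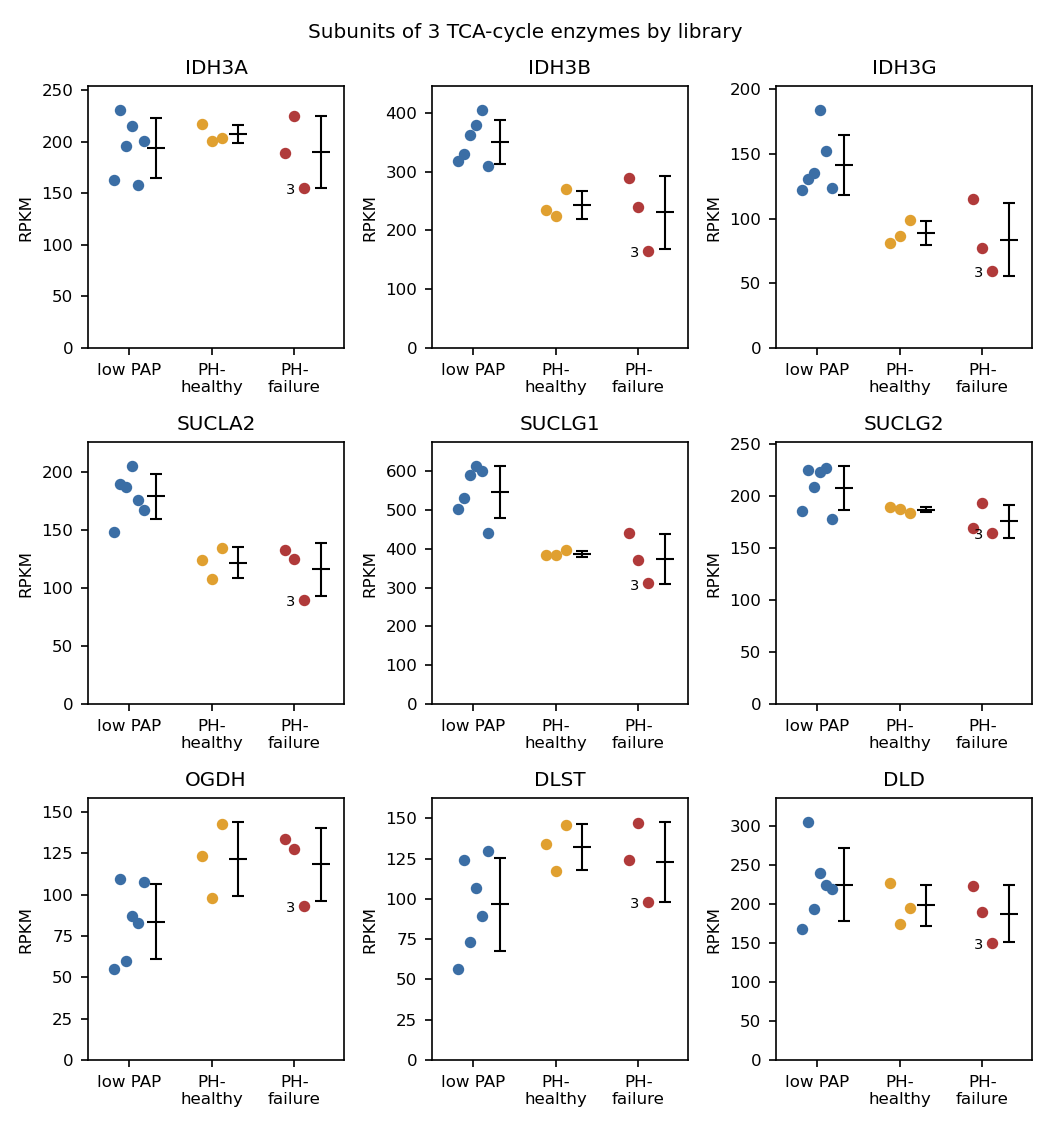
RPKM of the subunits of isocitrate dehydrogenase 3, succinyl-CoA ligase and 2-oxoglutarate dehydrogenase in each library (points) with the group mean and SD (bars), for low PAP (n = 6), PH-healthy and PH-failure (n = 3 each); "3" marks PH-failure replicate 3. IDH3B, IDH3G, SUCLA2 and SUCLG1 lie below the low-PAP points in all 6 PH libraries, and IDH3A, SUCLG2, OGDH, DLST and DLD overlap them.

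Succinate dehydrogenase is at once a TCA enzyme and complex II of the respiratory chain, with catalytic SDHA, iron-sulfur SDHB and the membrane anchors SDHC and SDHD. SDHB (ENSBTAG00000008314, chromosome 2, 136125303 to 136154362) was at 503 to 706 RPKM (median 562) in the low-PAP libraries, and replicates 1, 2 and 3 read 415, 433 and 476 RPKM in PH-healthy and 509.8, 408 and 353 RPKM in PH-failure. The PH-healthy libraries and PH-failure replicates 2 and 3 were below all low-PAP libraries, and PH-failure replicate 1 overlapped them. SDHB was called lower in PH-failure (log2 fold change -0.45 ± 0.14, adjusted p = 0.0303) and missed the threshold in PH-healthy (log2 fold change -0.38 ± 0.14, adjusted p = 0.0553). In PH-failure, SDHB was no longer called after quantile normalization or without any 1 of low-PAP replicates 3, 4 or 5 or PH-failure replicates 2 or 3 (then at an adjusted p from 0.0541 to 0.184, and at 0.011 to 0.184 across all 21 alternatives). In PH-healthy, SDHB was called lower after median-ratio scaling or after scaling without the mitochondrial genome, or without any 1 of low-PAP replicate 6 or PH-failure replicates 1 or 3 (then at an adjusted p from 0.0209 to 0.0374, and at 0.0209 to 0.714 across all 21 alternatives).

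SDHA was at 403 to 559.5 RPKM (median 490.0) in the low-PAP libraries, and replicates 1, 2 and 3 read 526, 478 and 507 RPKM in PH-healthy and 586, 450.5 and 369.6 RPKM in PH-failure. The groups overlapped, and the fold changes were -0.05 ± 0.15 in PH-failure and 0.08 ± 0.15 in PH-healthy (adjusted p = 0.799 and 0.713), with 0.11 in PH-failure once its replicate 3 was left out. SDHA was called higher in PH-healthy after quantile normalization (0.45, adjusted p = 0.0321; 0.0321 to 0.986 over its 21 alternatives). The anchors SDHC and SDHD had fold changes of -0.17 ± 0.13 and -0.29 ± 0.14 in PH-failure and -0.16 ± 0.13 and -0.18 ± 0.14 in PH-healthy, with overlapping groups and no call. With PH-failure replicate 3 left out, SDHC stood at -0.0053 and SDHD at -0.18 in PH-failure. In that comparison, SDHD was called lower after median-ratio scaling or after scaling without the mitochondrial genome, or without low-PAP replicate 1 (then at an adjusted p from 0.0203 to 0.0467, and at 0.0203 to 0.429 across all 21 alternatives).

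Fumarase, FH, hydrates fumarate to malate. FH (ENSBTAG00000021688, chromosome 16, 36059725 to 36086821) was at 202 to 251 RPKM (median 223) in the low-PAP libraries, and replicates 1, 2 and 3 read 182, 174 and 185 RPKM in PH-healthy and 187, 174 and 145 RPKM in PH-failure. All 6 PH libraries were below the low-PAP range, and the 3 PH-healthy values lay close to each other. FH was lower in PH-failure (log2 fold change -0.42 ± 0.11, adjusted p = 0.0171) and in PH-healthy (log2 fold change -0.31 ± 0.11, adjusted p = 0.0474). In PH-failure, FH was no longer called without PH-failure replicate 3 (then at adjusted p = 0.0833, and at 0.00802 to 0.13 across all 21 alternatives). In PH-healthy, FH was no longer called after quantile normalization, with no low-value filter, with limma-voom or with the library series as a term, or without any 1 of PH-failure replicate 2, PH-healthy replicates 1, 2 or 3 or low-PAP replicates 1, 2, 3, 4 or 5 (then at an adjusted p from 0.0503 to 0.142, and at 0.016 to 0.252 across all 21 alternatives).

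The malate dehydrogenases and aspartate aminotransferases work both in the cycle and in the malate-aspartate shuttle, which carries reducing equivalents into mitochondria. MDH2, the mitochondrial malate dehydrogenase, was at 975 to 1289 RPKM (median 1050.0) in the low-PAP libraries, and replicates 1, 2 and 3 read 871, 898 and 897 RPKM in PH-healthy and 1125, 884 and 549 RPKM in PH-failure. Its PH-healthy libraries were below all low-PAP libraries, yet MDH2 passed in neither comparison (log2 fold change -0.41 ± 0.18 in PH-failure and -0.29 ± 0.18 in PH-healthy, adjusted p = 0.0975 and 0.236). Leaving out PH-failure replicate 3, the PH-failure values were -0.12 for MDH2 and -0.12 for its cytosolic counterpart MDH1. In PH-failure, MDH2 was called lower after median-ratio scaling or without PH-failure replicate 1 (then at an adjusted p from 0.016 to 0.0358, and at 0.016 to 0.537 across all 21 alternatives). MDH1 was at 1232 to 1619.6 RPKM (median 1425) in the low-PAP libraries and had fold changes of -0.29 ± 0.14 and -0.17 ± 0.14 (adjusted p = 0.126 and 0.371), and after quantile normalization the PH-healthy value was 0.21, also without a call. In PH-failure, MDH1 was called lower after median-ratio scaling or without PH-failure replicate 1 (then at an adjusted p from 0.0393 to 0.0467, and at 0.0393 to 0.969 across all 21 alternatives). The MDH2 to MDH1 ratio was 0.672 to 0.884 (median 0.767) in the low-PAP libraries, 0.705, 0.727 and 0.680 in PH-healthy and 0.808, 0.722 and 0.599 in PH-failure replicates 1, 2 and 3, and the groups overlapped.

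GOT1, the cytosolic aspartate aminotransferase (ENSBTAG00000011960, chromosome 26, 20285686 to 20310044), was at 217 to 263 RPKM (median 241) in the low-PAP libraries, and replicates 1, 2 and 3 read 222, 184 and 213 RPKM in PH-healthy and 225, 195 and 127 RPKM in PH-failure. PH-failure replicate 3 was far below the rest, PH-failure replicate 2 was also under the low-PAP range, and replicate 1 was inside it. GOT1 passed the test narrowly in PH-failure (log2 fold change -0.43 ± 0.16, adjusted p = 0.0491) and did not in PH-healthy (log2 fold change -0.22 ± 0.16, adjusted p = 0.292). The call in PH-failure was lost after quantile normalization, with no low-value filter or with limma-voom, or without any 1 of PH-failure replicates 2 or 3, PH-healthy replicates 1, 2 or 3 or low-PAP replicates 1, 2, 3, 4 or 5 (then at an adjusted p from 0.0518 to 0.266, and at 0.0138 to 0.266 across all 21 alternatives). GOT2, the mitochondrial enzyme, was at 241 to 294 RPKM (median 269.9) in the low-PAP libraries, and replicates 1, 2 and 3 read 262, 273 and 247 RPKM in PH-healthy and 277, 236 and 208 RPKM in PH-failure, with overlapping groups and no call (log2 fold change -0.17 ± 0.11 in PH-failure and -0.05 ± 0.11 in PH-healthy). GOT2 was called lower in PH-failure after median-ratio scaling (then at adjusted p = 0.0298, and at 0.0298 to 0.657 across all 21 alternatives). The PH-failure log2 fold changes without replicate 3 were -0.19 for GOT1 and -0.072 for GOT2.

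The GOT2 to GOT1 ratio was 1.07 to 1.20 (median 1.11) in the low-PAP libraries, 1.18, 1.48 and 1.16 in PH-healthy and 1.23, 1.21 and 1.65 in PH-failure replicates 1, 2 and 3. All 3 PH-failure ratios were above the low-PAP range, while PH-healthy replicates 1 and 3 lay inside it. The log2 difference was 0.26 in PH-failure (exact p = 0.0119, adjusted p = 0.05) and 0.17 in PH-healthy (exact p = 0.0595, adjusted p = 0.156).

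The first steps of branched-chain breakdown are run by the mitochondrial aminotransferase BCAT2 and by the branched-chain ketoacid dehydrogenase, with BCKDHA and BCKDHB in its decarboxylating part and DBT in its core. BCKDHB (ENSBTAG00000012096, chromosome 9, 20073013 to 20335161) was at 31.6 to 43.4 RPKM (median 40.3) in the low-PAP libraries, and replicates 1, 2 and 3 read 24.0, 21.7 and 24.0 RPKM in PH-healthy and 27.4, 22.6 and 9.73 RPKM in PH-failure. Every PH library was below every low-PAP library, and PH-failure replicate 3 was far below the other PH libraries. The BCKDHB mean fell by 48.5% in PH-failure (log2 fold change -1.03 ± 0.24, adjusted p = 0.00884) and fell by 39.9% in PH-healthy (log2 fold change -0.70 ± 0.24, adjusted p = 0.036). Without PH-failure replicate 3, BCKDHB had a log2 fold change of -0.60 in PH-failure and was still called (adjusted p = 0.0194; 0.00266 to 0.054 over its 21 alternatives). In PH-healthy, BCKDHB was no longer called with no low-value filter or without any 1 of low-PAP replicates 1, 3, 4 or 5 or PH-healthy replicates 1, 2 or 3 (then at an adjusted p from 0.0581 to 0.109, and at 0.00183 to 0.122 across all 21 alternatives).

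BCKDHA, the other subunit of that decarboxylase, was at 24.9 to 34.5 RPKM (median 27.4) in the low-PAP libraries and had fold changes of -0.33 ± 0.14 in PH-failure and -0.27 ± 0.14 in PH-healthy, neither called (adjusted p = 0.093 and 0.166). In PH-failure, BCKDHA was called lower after quantile normalization or after median-ratio scaling, or without PH-failure replicate 1 (then at an adjusted p from 0.0193 to 0.0483, and at 0.0193 to 0.425 across all 21 alternatives), and in PH-healthy after median-ratio scaling (then at adjusted p = 0.0417, and at 0.0417 to 0.407 across all 21 alternatives). DBT was at 21.8 to 31.5 RPKM (median 25.6) in the low-PAP libraries and between 19.5 and 32.7 RPKM in the PH libraries, with overlapping groups and a log2 fold change of -0.07 ± 0.17 in PH-failure. BCAT2 was at 5.40 to 7.20 RPKM (median 5.71) in the low-PAP libraries, and replicates 1, 2 and 3 read 6.39, 6.23 and 6.89 RPKM in PH-healthy and 7.87, 6.76 and 2.59 RPKM in PH-failure. Apart from PH-failure replicate 3, the PH libraries of BCAT2 were in or just above the low-PAP range, and there was no call (log2 fold change -0.15 ± 0.22 in PH-failure and 0.10 ± 0.22 in PH-healthy). Leaving that library out, the PH-failure values were -0.16 for BCKDHA, -0.014 for DBT and 0.25 for BCAT2.

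The dehydrogenase is inhibited by the kinase BCKDK and activated by the phosphatase PPM1K. PPM1K (ENSBTAG00000005754, chromosome 6, 37876469 to 37898522) was at 53.7 to 77.1 RPKM (median 65.3) in the low-PAP libraries, and replicates 1, 2 and 3 read 111, 131 and 121 RPKM in PH-healthy and 101, 126 and 31.7 RPKM in PH-failure. In 5 of the 6 PH libraries PPM1K was above every low-PAP library, and in PH-failure replicate 3 it was below every one. The PPM1K mean was 81.3% higher in PH-healthy (log2 fold change 0.86 ± 0.31, adjusted p = 0.0498). That call was lost after quantile normalization, after median-ratio scaling, after scaling without the mitochondrial genome, with a pseudocount of 0.1, with no low-value filter, with limma-voom or without trend and robust moderation, or without any 1 of low-PAP replicates 1, 2, 3, 4, 5 or 6 or PH-healthy replicates 1, 2 or 3 (then at an adjusted p from 0.0506 to 0.148, and at 0.000876 to 0.148 across all 21 alternatives). In PH-failure it was not called (log2 fold change 0.16 ± 0.31, adjusted p = 0.711), but without replicate 3 it was (log2 fold change 0.76, adjusted p = 0.00973; 0.00973 to 0.905 over its 21 alternatives).

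BCKDK was at 15.9 to 24.1 RPKM (median 20.7) in the low-PAP libraries, and replicates 1, 2 and 3 read 26.3, 27.5 and 26.0 RPKM in PH-healthy and 28.1, 28.1 and 16.1 RPKM in PH-failure. The same 5 PH libraries were above the low-PAP range, and PH-failure replicate 3 lay near its lower end. BCKDK passed in neither comparison (log2 fold change 0.39 ± 0.17, adjusted p = 0.0872 in PH-healthy; log2 fold change 0.21 ± 0.17, adjusted p = 0.344 in PH-failure), and was called without PH-failure replicate 3 in PH-failure (0.46, adjusted p = 0.0422) and in PH-healthy (0.39, adjusted p = 0.0211). Over their 21 alternatives these ranged over 0.0422 to 0.882 and 0.0211 to 0.436. The BCKDK to PPM1K ratio was 0.275 to 0.376 (median 0.289) in the low-PAP libraries, 0.237, 0.211 and 0.215 in PH-healthy and 0.279, 0.223 and 0.508 in PH-failure replicates 1, 2 and 3. All PH-healthy ratios were below the low-PAP range, with a log2 difference of -0.46 (exact p = 0.0119, adjusted p = 0.05), and the PH-failure ratios straddled it, with 0.06 (exact p = 0.821).

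Leucine is carried further by IVD, by the carboxylase subunits MCCC1 and MCCC2, and by the hydratase AUH. MCCC2 (ENSBTAG00000044160, chromosome 20, 9843385 to 9919743), the beta subunit of the carboxylase, was at 4.13 to 8.20 RPKM (median 6.20) in the low-PAP libraries, and replicates 1, 2 and 3 read 10.7, 9.54 and 11.8 RPKM in PH-healthy and 7.84, 10.7 and 5.08 RPKM in PH-failure. The 3 PH-healthy libraries were above all low-PAP libraries, and the PH-failure libraries reached from inside the low-PAP range to above it. MCCC2 was 69.5% higher in the PH-healthy mean (log2 fold change 0.71 ± 0.22, adjusted p = 0.0273) and did not pass in PH-failure (log2 fold change 0.26 ± 0.22, adjusted p = 0.363). In PH-healthy, MCCC2 was no longer called after quantile normalization or after median-ratio scaling, or without any 1 of low-PAP replicates 3 or 5 or PH-healthy replicates 1, 2 or 3 (then at an adjusted p from 0.0518 to 0.112, and at 0.0145 to 0.112 across all 21 alternatives). MCCC1, the alpha subunit, was at 15.9 to 20.2 RPKM (median 17.7) in the low-PAP libraries and had fold changes of -0.49 ± 0.19 in PH-failure and -0.31 ± 0.19 in PH-healthy without a call (adjusted p = 0.063 and 0.23). MCCC1 was called lower in PH-failure after quantile normalization, after median-ratio scaling, after scaling without the mitochondrial genome or with the library series as a term, or without PH-failure replicate 1 (then at an adjusted p from 0.0184 to 0.0437, and at 0.0184 to 0.361 across all 21 alternatives) and in PH-healthy without PH-failure replicate 3 (then at adjusted p = 0.0436, and at 0.0436 to 0.528 across all 21 alternatives). In PH-failure without replicate 3, MCCC1 stood at -0.16 and MCCC2 at 0.51.

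IVD, isovaleryl-CoA dehydrogenase, was at 80.3 to 115 RPKM (median 97.1) in the low-PAP libraries, and replicates 1, 2 and 3 read 89.0, 75.5 and 98.1 RPKM in PH-healthy and 90.5, 93.5 and 37.1 RPKM in PH-failure. PH-failure replicate 3 and PH-healthy replicate 2 were below every low-PAP library, and the other 4 PH libraries lay inside their range. The fold changes of IVD were -0.49 ± 0.24 and -0.14 ± 0.24 (adjusted p = 0.123 and 0.675), and the first was -0.06 without PH-failure replicate 3. In PH-failure, IVD was called lower after median-ratio scaling (then at adjusted p = 0.0479, and at 0.0479 to 0.775 across all 21 alternatives). AUH is uncertain. Its row of higher mean RPKM, the one used, lies on chromosome 16 (27058046 to 27058913) with an exon length equal to its span, the only member of this kind, and a mean of 10.2 RPKM, while a row on chromosome 8 averaged 6.07 RPKM. The AUH row used had fold changes of -0.22 ± 0.12 and -0.18 ± 0.12 with no call, and in PH-failure AUH was called lower after quantile normalization or after median-ratio scaling (then at an adjusted p from 0.0295 to 0.0316, and at 0.0295 to 0.377 across all 21 alternatives).

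Valine breakdown was represented by HIBCH, a hydrolase, and HIBADH, a dehydrogenase. HIBCH was at 50.4 to 88.6 RPKM (median 56.4) in the low-PAP libraries, and replicates 1, 2 and 3 read 48.4, 42.1 and 44.3 RPKM in PH-healthy and 56.3, 49.5 and 39.7 RPKM in PH-failure. All 3 PH-healthy values were below the low-PAP range and the PH-failure values overlapped it. HIBCH passed in neither comparison (log2 fold change -0.34 ± 0.16, adjusted p = 0.124 in PH-failure; log2 fold change -0.43 ± 0.16, adjusted p = 0.057 in PH-healthy). In PH-healthy, HIBCH was called lower after median-ratio scaling or after scaling without the mitochondrial genome, or without any 1 of low-PAP replicate 6 or PH-failure replicate 3 (then at an adjusted p from 0.0242 to 0.0429, and at 0.0242 to 0.166 across all 21 alternatives), and in PH-failure after median-ratio scaling (then at adjusted p = 0.0406, and at 0.0406 to 0.419 across all 21 alternatives). HIBADH was at 89.1 to 107 RPKM (median 94.6) in the low-PAP libraries, and replicates 1, 2 and 3 read 99.7, 105 and 89.9 RPKM in PH-healthy and 93.7, 99.3 and 79.0 RPKM in PH-failure. Its groups overlapped, with fold changes of -0.10 ± 0.11 and 0.02 ± 0.11. For PH-failure without its replicate 3, HIBCH had -0.20 and HIBADH -0.0026.

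Valine, isoleucine and odd-chain fatty acids end in propionyl-CoA, which PCCA and PCCB carboxylate. Methylmalonyl-CoA mutase, MUT, makes succinyl-CoA of the product in a step that needs vitamin B12. MUT (ENSBTAG00000014272, chromosome 23, 21938480 to 21980132) was at 62.0 to 90.6 RPKM (median 73.9) in the low-PAP libraries, and replicates 1, 2 and 3 read 56.6, 53.7 and 65.1 RPKM in PH-healthy and 60.8, 53.3 and 31.3 RPKM in PH-failure. The PH-failure libraries were all below low PAP, and PH-healthy replicate 3 overlapped it. MUT fell by 34.7% in PH-failure (log2 fold change -0.65 ± 0.18, adjusted p = 0.0189) and was not called in PH-healthy (log2 fold change -0.33 ± 0.18, adjusted p = 0.162). In PH-failure, MUT was no longer called without PH-failure replicate 3 (then at adjusted p = 0.0887, and at 0.00694 to 0.125 across all 21 alternatives). In PH-healthy, MUT was called lower without PH-failure replicate 3 (then at adjusted p = 0.0449, and at 0.0449 to 0.462 across all 21 alternatives). PCCA and PCCB, at 21.1 to 26.3 RPKM (median 22.9) and 46.2 to 64.7 RPKM (median 54.2) in the low-PAP libraries, had fold changes of -0.23 ± 0.18 and -0.35 ± 0.20 in PH-failure and 0.05 ± 0.18 and -0.10 ± 0.20 in PH-healthy, with no call. In PH-failure, PCCB was called lower after median-ratio scaling or without PH-failure replicate 1 (then at an adjusted p from 0.0211 to 0.0468, and at 0.0211 to 0.935 across all 21 alternatives). With replicate 3 of PH-failure left out, its fold changes were -0.37 for MUT, 0.092 for PCCA and -0.02 for PCCB.

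Ketone bodies are oxidized by BDH1, which makes acetoacetate from 3-hydroxybutyrate, by OXCT1, which activates acetoacetate with the CoA of succinyl-CoA, and by the thiolase ACAT1, which also serves isoleucine. OXCT1 (ENSBTAG00000033186, chromosome 20, 32683995 to 32848723) was at 114 to 189 RPKM (median 148) in the low-PAP libraries, and replicates 1, 2 and 3 read 219.7, 251 and 243 RPKM in PH-healthy and 192, 215 and 101 RPKM in PH-failure. In 5 of the 6 PH libraries OXCT1 was above the low-PAP range, and in PH-failure replicate 3 it was below it. OXCT1 was 60.1% higher in the PH-healthy mean (log2 fold change 0.69 ± 0.21, adjusted p = 0.0257) and not called in PH-failure (log2 fold change 0.13 ± 0.21, adjusted p = 0.647), where the fold change was 0.47 without replicate 3. In PH-healthy, OXCT1 was no longer called after median-ratio scaling or without any 1 of PH-healthy replicates 1, 2 or 3 (then at an adjusted p from 0.0613 to 0.112, and at 0.00395 to 0.112 across all 21 alternatives).

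ACAT1 (ENSBTAG00000012885, chromosome 15, 17999931 to 18028984) was at 206 to 327 RPKM (median 245) in the low-PAP libraries, and replicates 1, 2 and 3 read 208, 204 and 173 RPKM in PH-healthy and 234, 198 and 207 RPKM in PH-failure. The PH values were at or below the lower part of the low-PAP range, with overlap. ACAT1 was called lower in PH-healthy (log2 fold change -0.42 ± 0.15, adjusted p = 0.0489) and not in PH-failure (log2 fold change -0.29 ± 0.15, adjusted p = 0.148). In PH-healthy, ACAT1 was no longer called after quantile normalization, with no low-value filter or with the library series as a term, or without any 1 of PH-failure replicate 2, PH-healthy replicates 1, 2 or 3 or low-PAP replicates 3, 4 or 5 (then at an adjusted p from 0.057 to 0.181, and at 0.0188 to 0.225 across all 21 alternatives). In PH-failure, ACAT1 was called lower after median-ratio scaling (then at adjusted p = 0.0398, and at 0.0398 to 0.419 across all 21 alternatives).

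BDH1 was at 112 to 186 RPKM (median 141) in the low-PAP libraries, and replicates 1, 2 and 3 read 98.1, 77.6 and 167 RPKM in PH-healthy and 119, 144 and 9.86 RPKM in PH-failure. PH-failure replicate 3 held 7.49% of the mean of the other 2 failure libraries, the lowest such share of any member. The groups overlapped and BDH1 was not called in PH-failure (log2 fold change -1.30 ± 0.64, adjusted p = 0.127; -0.10 without replicate 3, adjusted p = 0.802, with 0.0462 to 0.802 over its 21 alternatives) or in PH-healthy (log2 fold change -0.37 ± 0.64, adjusted p = 0.673). It was called lower in PH-failure without PH-failure replicate 2 (-1.97, adjusted p = 0.0462). The BDH1 to OXCT1 ratio was 0.714 to 1.20 (median 0.939) in the low-PAP libraries, 0.447, 0.309 and 0.685 in PH-healthy and 0.617, 0.672 and 0.0980 in PH-failure replicates 1, 2 and 3. Every PH ratio was below every low-PAP ratio. The log2 difference was -1.07 in PH-healthy and -1.48 in PH-failure (exact p = 0.0119 and adjusted p = 0.05 in each, the same low-PAP libraries serving both). Without PH-failure replicate 3, the difference in PH-failure was -0.57 (exact p = 0.0714).

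**Figure D4:**
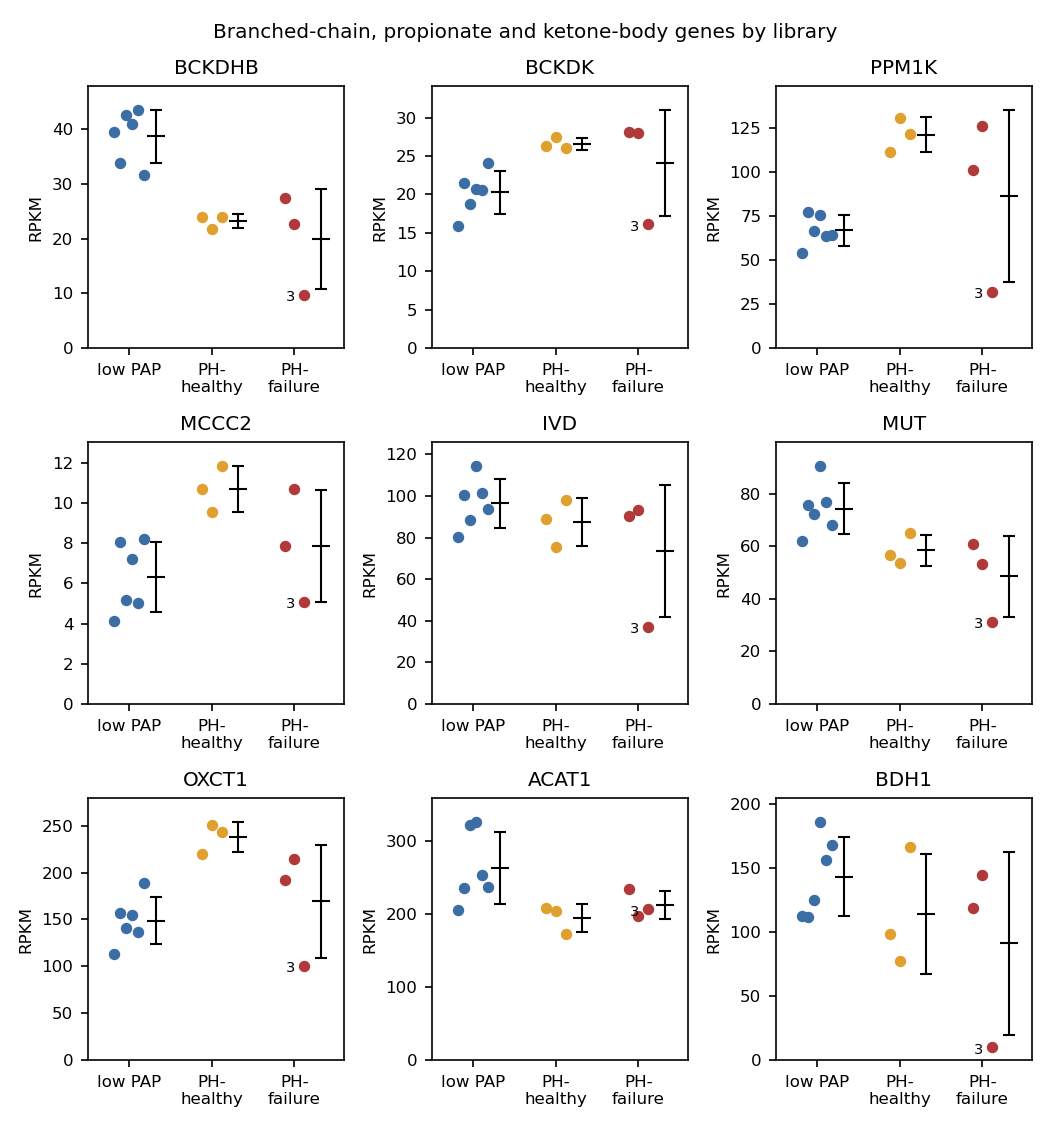
RPKM of 9 branched-chain, propionate and ketone-body genes in each library (points) with the group mean and SD (bars), for low PAP (n = 6), PH-healthy and PH-failure (n = 3 each); "3" marks PH-failure replicate 3. PPM1K and OXCT1 are above the low-PAP points in 5 PH libraries and below them in PH-failure replicate 3, where BDH1 stands at 9.86 RPKM.

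PH-failure replicate 3 was the lowest of the 12 libraries in 30 of the 40 members, against 12.1% of all tested genes, and the highest in none, against 28.7%. It was below both other failure libraries in 36 members (20 of 22 of the TCA cycle and 16 of 18 of the others), where 31.2% of all genes were. The median member stood at 0.698 of the mean of the other 2 failure libraries, 0.718 in the TCA cycle and 0.521 in the other pathways, beside 1.06 over all genes. The lowest after BDH1 were PPM1K (27.9%), BCAT2 (35.4%), BCKDHB (38.9%) and IVD (40.3%), and ACO1 (107%) was above the mean of the other 2.

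Summed over the 22 TCA-cycle genes, the level was 7799 ± 670.0 RPKM in low PAP (SD, n = 6), 6925 ± 281 in PH-healthy and 6509 ± 1380.0 in PH-failure (SD, n = 3 each). PH-failure replicates 1, 2 and 3 had sums of 7724, 6794 and 5009 RPKM, beside 6709 to 8544 RPKM in the low-PAP libraries. The 18 others summed to 1183 ± 131, 1175 ± 39.7 and 1014 ± 303 RPKM, with 664 in PH-failure replicate 3. Cell type markers moved in the same library. The 10 cardiomyocyte markers summed to 51426 to 69458 RPKM in low PAP, 60502 to 66012 in PH-healthy, 61898 and 65852 in PH-failure replicates 1 and 2 and 38943 in replicate 3, which is 61.0% of the mean of those 2. These markers did not move alike in PH-failure replicate 3. TTN was above the low-PAP range there, and MYL2, MYH7 and RYR2 lay inside it. TNNT2, TNNI3, ACTC1, CKM, MYBPC3 and PLN were below it, with ACTC1 at 831 RPKM. The 7 adipocyte markers found in the table summed to 43.4 to 277 RPKM in low PAP, 44.8 to 90.1 in PH-healthy, and 220.4, 85.8 and 1055 in PH-failure replicates 1, 2 and 3. In replicate 3, FABP4 alone read 949 RPKM, and FABP4 and ADIPOQ (70.5 RPKM) were the highest of the 12 libraries. CIDEA, CIDEC and THRSP lay inside the low-PAP range there, and PCK1 and SCD below it. The macrophage markers reached 182 RPKM and the red cell markers 68.9 RPKM in PH-failure replicate 3, the highest of the 12 libraries in each.

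Against low PAP, the cardiomyocyte markers had 1 higher and 4 lower of 10 in PH-failure, and 2 and 1 in PH-healthy. Higher in PH-failure were 6 of 10 fibroblast, 5 of 10 endothelial, 5 of 8 smooth muscle and 7 of 10 macrophage markers, and in PH-healthy 6, 4, 3 and 3. In each comparison 1 smooth muscle marker was lower. Of all tested genes, 28.0% were called higher and 5.79% lower in PH-failure, and 26.6% and 8.15% in PH-healthy. Of 6 adipocyte markers tested, none was called in limma in either comparison, and 2 of 7 T cell markers were lower in PH-failure and 1 in PH-healthy. No marker was at 0 in every library, and the fast skeletal muscle genes MYH1, MYH2, TNNI2 and MYLPF were under 1 RPKM in every library. The other 2 skeletal muscle markers listed were ACTN3, at 1.25 to 3.29 RPKM over all libraries, and TNNT3, at 0.259 to 2.81 RPKM. Of these 2, the only ones of the list tested, 1 was called higher in PH-failure and 1 in PH-healthy. As a percent of the cardiomyocyte marker sum, the TCA-cycle members came to 11.4 to 13.4 in low PAP, 10.1 to 11.8 in PH-healthy and 10.3 to 12.9 in PH-failure, with the 12.9 in replicate 3. The other members came to 1.71 to 2.18, 1.74 to 1.98 and 1.70 to 1.91, with the 1.70 in replicate 3. MYL2 was the largest part of the marker sum in every library. It read 18096 to 28812 RPKM in low PAP, 30177 to 39265 in PH-healthy and 18793 in PH-failure replicate 3. In PH-healthy, MYL2, MYH7 and TTN were above the low-PAP range, ACTC1 and CKM were below it, and the rest of the list overlapped it. These percents therefore depend largely on MYL2. The part of cell makeup, and that of depth, in the members' differences was not tested.

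**Figure D5:**
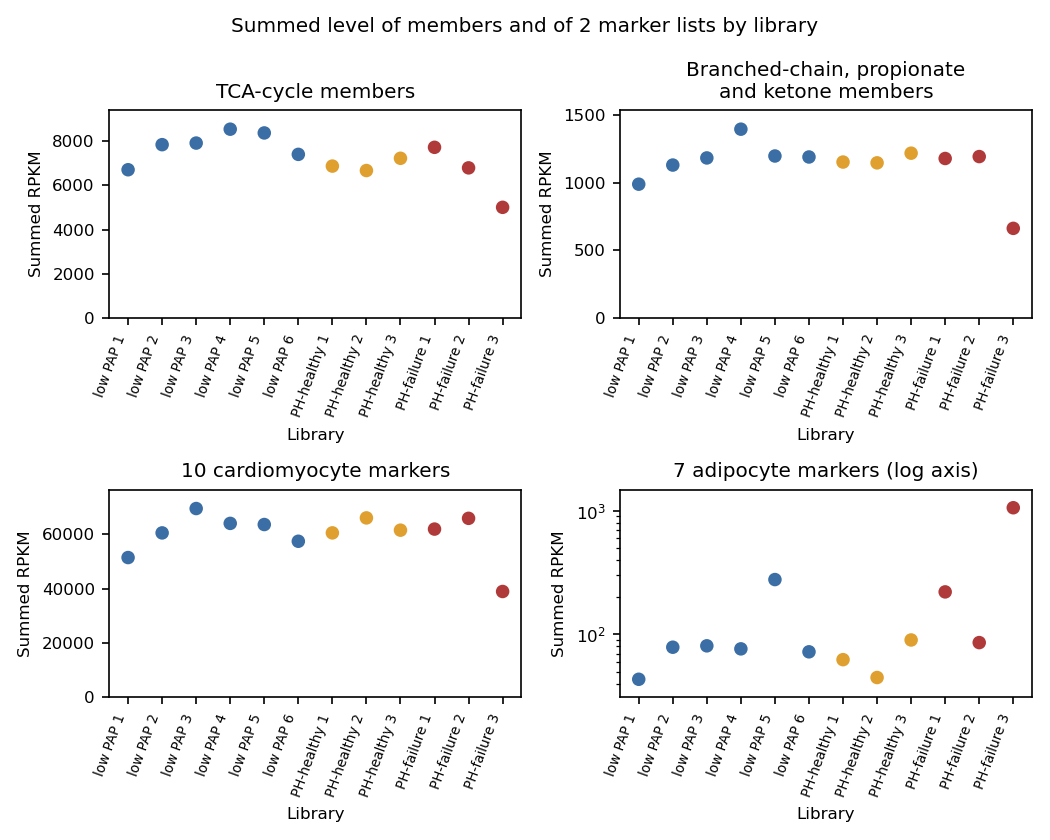
Summed RPKM per library of the 22 TCA-cycle members, the 18 other members, 10 cardiomyocyte markers and 7 adipocyte markers (log axis), for the low-PAP (blue), PH-healthy (orange) and PH-failure (red) libraries. PH-failure replicate 3 has the lowest sum in the first 3 panels and the highest adipocyte sum, 1055 RPKM, of which FABP4 alone is 949 RPKM.

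With both PH groups pooled, 10 members were lower than in low PAP and 3 higher, against 10.4% and 37.3% of all tested genes. The lower ones were IDH3B, IDH3G, SUCLA2, SUCLG1, SDHB, FH, BCKDHB, HIBCH, MUT and ACAT1, and the higher ones CS, OGDH and MCCC2. This comparison uses all 12 libraries of the others, so it adds precision and not new animals. The median member difference was -0.22 and that of all genes 0.19 (-0.16 and -0.03 after quantile normalization). For 6 members all 6 PH libraries were below all low-PAP libraries, and for none were they above, where 2.93% and 13.8% of all genes were. After median-ratio scaling the members were split 0 higher and 24 lower, and after scaling without the mitochondrial genome 1 and 19. For all genes the split was 4243 higher and 1178 lower. It was 1930 and 2405 after quantile normalization and 2504 and 2542 after median-ratio scaling. After scaling without the mitochondrial genome it was 3511 and 1610. All 13 called members had the same direction within each library series, whose libraries are the ones that chose them.

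Smallest in adjusted p was SUCLA2 (log2 fold change -0.59 ± 0.12, adjusted p = 0.00203), followed by IDH3G (log2 fold change -0.72 ± 0.15, adjusted p = 0.00287), SUCLG1 (log2 fold change -0.52 ± 0.11, adjusted p = 0.00327), BCKDHB (log2 fold change -0.87 ± 0.19, adjusted p = 0.00381) and IDH3B (log2 fold change -0.58 ± 0.13, adjusted p = 0.00408). FH (log2 fold change -0.37 ± 0.09, adjusted p = 0.00722) and MUT (log2 fold change -0.49 ± 0.15, adjusted p = 0.016) were lower too. Each of these 7 was called without any 1 library and under every other scaling. In a limma fit with the replicate number as a block, over replicates 1 to 3 of each group, 4 of them were not called. These were IDH3B, IDH3G, FH and MUT (adjusted p = 0.0687, 0.0531, 0.11 and 0.159). SDHB was lower as well (log2 fold change -0.41 ± 0.12, adjusted p = 0.0119); SDHB was no longer called after quantile normalization (then at adjusted p = 0.26, and at 0.00359 to 0.26 across all 21 alternatives). HIBCH was lower (log2 fold change -0.38 ± 0.13, adjusted p = 0.0319), a call lost without any 1 of PH-failure replicate 3, PH-healthy replicates 2 or 3 or low-PAP replicates 4 or 5 (then at an adjusted p from 0.0537 to 0.071, and at 0.00842 to 0.152 across all 21 alternatives). ACAT1 was lower (log2 fold change -0.35 ± 0.12, adjusted p = 0.0326), a call lost without any 1 of PH-failure replicates 2 or 3, PH-healthy replicate 3 or low-PAP replicates 3, 4 or 5 (then at an adjusted p from 0.0516 to 0.0766, and at 0.00707 to 0.221 across all 21 alternatives).

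Among those higher, OGDH rose by 0.54 ± 0.18 (adjusted p = 0.0272). Here OGDH was no longer called after median-ratio scaling or without any 1 of PH-failure replicates 1 or 2, PH-healthy replicates 1 or 3 or low-PAP replicates 1 or 3 (then at an adjusted p from 0.0529 to 0.157, and at 0.0135 to 0.157 across all 21 alternatives). CS rose by 0.39 ± 0.14 (adjusted p = 0.0412). Its call was lost after median-ratio scaling, after scaling without the mitochondrial genome, with no low-value filter or with the library series as a term, or without any 1 of PH-failure replicates 1 or 2, PH-healthy replicates 1, 2 or 3 or low-PAP replicates 1, 2, 3, 4 or 5 (then at an adjusted p from 0.0505 to 0.437, and at 0.00282 to 0.437 across all 21 alternatives). MCCC2 rose by 0.49 ± 0.18 (adjusted p = 0.0409). That call was lost after quantile normalization, after median-ratio scaling, after scaling without the mitochondrial genome or with no low-value filter, or without any 1 of PH-failure replicates 1 or 2, PH-healthy replicates 1, 2 or 3 or low-PAP replicates 1, 3 or 5 (then at an adjusted p from 0.0504 to 0.308, and at 0.0131 to 0.308 across all 21 alternatives). Without PH-failure replicate 3 the members called were 7 higher and 8 lower, where all 11374 genes were split 3892 higher and 1124 lower. The higher members now also included PPM1K (0.81, adjusted p = 0.000394), BCKDK (adjusted p = 0.00662), OXCT1 (adjusted p = 0.00375) and DLST (adjusted p = 0.0496). Their highest adjusted p over the alternatives was 0.428, 0.702, 0.449 and 0.365. OXCT1 was also called without low-PAP replicate 6 (adjusted p = 0.0355), SUCLG2 lower without the same library (adjusted p = 0.0385), and GOT1, MDH2, MDH1, BCKDHA, MCCC1 and PCCB lower without PH-failure replicate 1 (adjusted p = 0.0138, 0.012, 0.047, 0.0115, 0.0147 and 0.0426). IDH1 and SDHD were called lower without low-PAP replicate 1 (adjusted p = 0.0481 and 0.0293), BCKDHA and AUH without low-PAP replicate 6 (0.0392 and 0.0496), and MCCC1 without PH-failure replicate 2 (0.0401). DLST was called without low-PAP replicate 2 or 6 as well (0.0412 and 0.0295).

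Between failing and PH-healthy ventricles, limma called none of the 40 members higher (0.0% of all genes) or lower (0.00879%, 1 gene), and limma-voom on the recovered reads called none either. At an unadjusted p under 0.05 there was 1 member, OXCT1, and 308 of all genes. The median member difference was -0.12 beside 0.02 over all genes. OXCT1 was the one member whose groups did not overlap, with all PH-failure libraries below the PH-healthy ones, as in 2.13% of all genes (3.61% had them above). Its log2 fold change was -0.56 ± 0.24 (unadjusted p = 0.0398, adjusted p = 1), and -0.22 without PH-failure replicate 3. Member differences ranged from -0.93 (BDH1) to 0.21 (IDH1). With 3 against 3 libraries an exact test of a ratio cannot go below 0.1, and the smallest found was 0.2, for BCKDK to PPM1K (log2 difference 0.52, adjusted p = 0.425).

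Other enzymes and carriers of the same pathways were read from lists of genes outside the 40. The background of calls was 28.0% of tested genes for a rise and 5.79% for a fall against low PAP in PH-failure, and 26.6% and 8.15% in PH-healthy. Of 30 TCA-cycle partners listed, 25 were tested, and 1 was higher and 4 lower in PH-failure, and 5 and 2 in PH-healthy. PDHB, a subunit of pyruvate dehydrogenase, was at 354 to 445 RPKM (median 403) in the low-PAP libraries, and replicates 1, 2 and 3 read 306, 289 and 306 RPKM in PH-healthy and 332, 311 and 217 RPKM in PH-failure. All PH values of PDHB were below the low-PAP range, with log2 fold changes of -0.52 ± 0.14 in PH-failure (adjusted p = 0.015) and -0.43 ± 0.14 in PH-healthy (adjusted p = 0.029). Those calls were lost without PH-failure replicate 3 in the first (then -0.33), and in the second after quantile normalization or without low-PAP replicate 3, 4 or 5 or any 1 PH-healthy library (the highest adjusted p over alternatives was 0.0915 and 0.259). ACLY, which splits citrate in the cytosol, was at 2.06 to 2.98 RPKM (median 2.73) in the low-PAP libraries and above that range in all 6 PH libraries, a rise of 0.49 ± 0.11 in PH-failure and 0.38 ± 0.11 in PH-healthy (adjusted p = 0.00931 and 0.0233). ACLY was not called after quantile normalization in either (highest adjusted p over alternatives 0.299 and 0.669), nor in PH-healthy after median-ratio scaling or without PH-healthy replicate 1 or 2.

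The aspartate-glutamate carrier SLC25A12 fell by 0.71 ± 0.20 on the log2 scale in PH-failure (adjusted p = 0.0194), a call lost without PH-failure replicate 3 (log2 fold change -0.43, adjusted p = 0.103; 0.00444 to 0.106 over its 21 alternatives). LIPT1, a lipoyltransferase that these dehydrogenases depend on, fell by 0.52 ± 0.15 in PH-healthy (adjusted p = 0.0179; 0.00188 to 0.0681 over its 21 alternatives), and not without PH-healthy replicate 1 or 2. The citrate carrier SLC25A1 rose by 0.64 ± 0.19 in PH-healthy (adjusted p = 0.0213; 0.00721 to 0.1), and not after median-ratio scaling or without PH-healthy replicate 1 or 3.

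Of 20 branched-chain and propionate partners listed, 17 were tested, and 1 was higher and 5 lower in PH-failure, and 1 and 6 in PH-healthy. ECHS1, the short-chain enoyl-CoA hydratase of valine and fatty acid breakdown, was at 226 to 337 RPKM (median 274) in the low-PAP libraries, and replicates 1, 2 and 3 read 156, 145 and 151 RPKM in PH-healthy and 213, 138 and 118 RPKM in PH-failure. All 6 PH libraries were below the low-PAP range. ECHS1 fell by 0.89 ± 0.18 in PH-failure and 0.90 ± 0.18 in PH-healthy (adjusted p = 0.00481 and 0.00359). MCEE, the epimerase that feeds MUT, and MMADHC, which routes its cobalamin cofactor, were also below the low-PAP range in all 6 PH libraries. MCEE had fold changes of -0.83 ± 0.18 and -0.72 ± 0.18 (adjusted p = 0.00711 and 0.0108), the second lost without PH-healthy replicate 3 (0.0701 at most over its 21 alternatives). For MMADHC they were -0.50 ± 0.12 and -0.60 ± 0.12 (adjusted p = 0.0111 and 0.00417). HADHA, of the trifunctional protein of fatty acid oxidation, was lower in PH-healthy (log2 fold change -0.63 ± 0.13, adjusted p = 0.005) and not called in PH-failure (log2 fold change -0.34 ± 0.13, adjusted p = 0.0606).

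Of 7 ketone-body partners listed, 6 were tested, and 1 was lower in each comparison and 1 was higher in PH-healthy. BDH2 was at 47.9 to 75.2 RPKM (median 57.4) in the low-PAP libraries, and replicates 1, 2 and 3 read 29.3, 39.6 and 34.2 RPKM in PH-healthy and 41.8, 33.0 and 18.2 RPKM in PH-failure. All PH values were below the low-PAP range, and BDH2 fell by 0.94 ± 0.22 in PH-failure and 0.73 ± 0.22 in PH-healthy (adjusted p = 0.00892 and 0.0219), the second call lost without PH-healthy replicate 1 or 3 (0.0997 at most over its 21 alternatives). In PH-failure BDH2 had a log2 fold change of -0.61 without replicate 3 (adjusted p = 0.04; 0.0029 to 0.0611 over its alternatives). SLC16A1, a carrier of lactate and ketone bodies, was higher in PH-healthy (log2 fold change 0.47 ± 0.16, adjusted p = 0.0393), a call lost in 12 of its 21 alternatives, among them quantile normalization and leaving out any PH-healthy library or low-PAP replicate 1, 3, 4 or 5 (adjusted p = 0.00808 to 0.248 over them all). HMGCS1, the cytosolic synthase of the mevalonate route, was called only with both PH groups together (log2 fold change 0.37 ± 0.13, adjusted p = 0.0354) and lost that call in 13 of 21 alternatives, among them leaving out low-PAP replicate 1, 3, 4 or 5, PH-healthy replicate 1 or 3 or PH-failure replicate 1 or 2 (0.00913 to 0.376 over them all).

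Of 12 regulators of mitochondrial genes listed, 11 were tested, and 3 were higher and none lower in PH-failure, and 3 higher and 1 lower in PH-healthy, shares near those of all genes. ESRRG, a nuclear receptor that drives oxidative metabolism genes in the heart, was at 1.35 to 3.13 RPKM (median 1.66) in the low-PAP libraries, and replicates 1, 2 and 3 read 4.59, 4.82 and 7.15 RPKM in PH-healthy and 3.66, 5.37 and 4.65 RPKM in PH-failure. All 6 PH libraries were above the low-PAP range. ESRRG rose by 0.92 ± 0.20 and 1.14 ± 0.20 (adjusted p = 0.00791 and 0.00244), and kept its call in each of the 21 alternatives of both comparisons. GABPA, a nuclear respiratory factor, rose by 0.59 ± 0.15 and 0.53 ± 0.15 (adjusted p = 0.0123 and 0.0177). GABPA was not called after median-ratio scaling in either, without PH-failure replicate 3 in the first, or without PH-healthy replicate 1 or 2 in the second (0.00554 to 0.0619 and 0.00966 to 0.0713 over the alternatives). NRF1 rose in PH-failure (log2 fold change 0.44 ± 0.14, adjusted p = 0.031) but lost the call in 10 of 21 alternatives, the 3 other scalings and leaving out PH-failure replicate 2 or 3 or low-PAP replicate 1, 3, 4 or 5 among them (0.0168 to 0.337 over them all). SIRT3, a mitochondrial deacylase, was lower in PH-healthy (log2 fold change -0.47 ± 0.14, adjusted p = 0.023), a call lost without PH-healthy replicate 1 or 3 (0.00373 to 0.133 over its alternatives).

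With both PH groups together, 37.3% of all tested genes were called higher and 10.4% lower. In that comparison the TCA partners had 4 higher and 5 lower of 25 tested, and the branched-chain and propionate partners 1 and 7 of 17. The ketone partners had 1 and 1 of 6, and the regulators 4 and 2 of 11. Between PH-failure and PH-healthy, limma called none of these genes.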

How the data were processed

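RNA of the right ventricle of 12 animals was taken up in Trizol, and its libraries were of the standard Illumina kind, per the labels' protocols. The authors deposited RPKM for each gene and library, which per the file headers are scaled by exon length and by a library's mapped reads. The aligner, the counting method, the strand setting and the build are given in none of those sources. Positions are therefore as the table has them, and overlapping or near-identical genes may share reads. Groups come from the sample titles. The members, the lists of other genes and markers, the tests and the rule for named genes were chosen with earlier results of these data known.

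Tested were the 11374 genes that reached 1 RPKM in 3 libraries or more, as log2(RPKM + 1), with limma 3.58.1 (trend and robust moderation, statmod 1.5.0, R 4.3.3). The model held 3 groups and 12 libraries, with 4 contrasts and Benjamini-Hochberg adjustment over all genes at 0.05. On this scale the change of genes with low values is understated. The spread is that between animals. Depth was 14739237 to 31090198 mapped reads. Reads were recovered from the RPKM steps, whole within 0.05 reads in all 11374 genes. Each comparison had 21 alternatives: limma-voom on those reads, 3 other scalings, a pseudocount of 0.1, no filter, the library series as a term, no trend or robust moderation, a replicate block, and 12 that each left out 1 library. The 7 ratios were tested by exact permutation of libraries, two-sided, in 3 comparisons. Members named with every library were fixed genes of each step plus those called, in order of adjusted p. Of genes outside the 40, those with the 3 smallest adjusted p per list and comparison were named. The methods were tested on simulated data. Tables and plots were made in Python 3.11.15 (matplotlib 3.10.9, numpy 2.4.6, pandas 2.3.3).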

Additional observations from a re-analysis of the deposited data

Results flagged for a closer look

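Of 48 sets of 6 low-PAP values examined for a library far from the rest, 3 had one, where chance gives about 1 in 20. IDH2 was at 405 RPKM in low-PAP replicate 1 and at 500.4 RPKM or more in the other 5. In the same library, reads of the mitochondrial genome took 29.9% of the exon reads, where the next highest low-PAP library had 24.6%. The log2 ratio of IDH3A to IDH2 was -1.77 in low-PAP replicate 5 and -1.36 or more in the other 5. The causes were not tested.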

How the results depend on the processing

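In PH-failure the members called lower were 9, and 22 after median-ratio scaling and 2 to 14 without any 1 library (2 without PH-failure replicate 3, 14 without PH-failure replicate 1). Those called higher were 0, and 0 to 3 without any 1 library. In PH-healthy the 3 higher became 0 after median-ratio scaling and 0 to 5 without any 1 library, and the 7 lower became 4 after quantile normalization, 11 after median-ratio scaling, 4 with no filter and 0 to 11 without any 1 library. With both PH groups, the 3 higher became 0 after median-ratio scaling, 1 after scaling without the mitochondrial genome, 1 with no filter and 0 to 7 without any 1 library, and the 10 lower became 24, 19 and, without any 1 library, 8 to 16. Of all genes, those called lower without any 1 library were 257 to 929 in PH-failure, 382 to 1092 in PH-healthy and 932 to 1381 with both PH groups. Those called higher were 1283 to 3832, 1508 to 3588 and 3490 to 4646. With no filter, of 17284 genes, PH-healthy had 815 lower and both PH groups 4630 higher. PH-failure against PH-healthy had 0 members called in every alternative. Replicate numbers did not pair the samples: over 9 same-number pairs, correlations ran from -0.257 to 0.193. A fit with the replicate number as a block, over replicates 1 to 3 of each group, called 0 members lower in PH-failure, 0 higher and 0 lower in PH-healthy, and 0 higher and 3 lower with both PH groups, and of all genes 1225 higher and 158 lower, 1511 and 318, and 2515 and 505. It drops 3 low-PAP libraries. The 104 results of the members named with every library had 2184 alternative values. Of these, 1968 kept their side of the threshold (72 of these turned in sign, with no call either way), 50 gained and 166 lost a call, and 0 reversed a call. The remaining members, called in none of the 4 comparisons, are not in this count, and nor are the calls that they gained in alternatives. Without any 1 library the log2 difference of SUCLA2/SUCLG2 in PH-failure ran from -0.53 to -0.27, BDH1/OXCT1 in PH-failure from -1.96 to -0.57, IDH2/IDH1 in PH-healthy from 0.23 to 0.64 (0.43 with 1 added to each RPKM) and GOT2/GOT1 in PH-healthy from 0.058 to 0.24. The other ratio alternatives stayed on the same side of an exact p of 0.05. Why settings differ was not tested. Groups of 3 limit all comparisons, and low read counts limit AUH, BCAT2 and MCCC2, which had the fewest reads (125, 165 and 197 in their lowest library).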
